A study of Mus musculus with 12 samples.

Results

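The kallikreins are a family of secreted serine proteases, and the genes examined were all protein-coding genes of the mouse whose symbol begins with Klk. The GENCODE annotation of GRCm38 holds 27 such genes, and 26 of them were matched by Ensembl ID among the 39179 genes of the deposited expression table. All 26 lie in 1 cluster on chromosome 7, between positions 43690418 and 44229618, a span of 539201 bases. Klkb1, the plasma kallikrein gene on chromosome 8, was not matched and is not analysed here. The 26 genes comprise 13 genes of the Klk1b group and 13 others, namely Klk1 and Klk4 to Klk15. Only 3 of the 26, Klk1b22, Klk1b24 and Klk8, reached 4 on the deposited log2 scale in 6 or more libraries, which is the filter used for all tests and which 16197 genes of the whole table passed.

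The libraries were made from poly-A RNA of the prostates of mice null for the gene under study and of wild-type mice, with 6 libraries of each genotype. All mice were 4 months old, of a hybrid 129/SvImJ and C57Bl/6J strain, and all, in both genotypes, were treated with paraquat, an agent that causes oxidative stress. Untreated mice were not part of the comparison. The labels do not say which libraries came from separate animals. Values are the log2 values deposited by the authors, and differences are null minus wild type on that scale.

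In both genotypes, libraries 1 to 3 and libraries 4 to 6 formed separate sets when all tested genes other than the kallikreins were clustered. Libraries of 1 set differed from each other by a median of 0.0776 to 0.141 per gene, libraries of different sets but the same genotype by 0.273 to 0.352, and libraries of different genotypes by 0.323 to 0.709. P-values from 12 libraries may thus treat related libraries as independent, and each is given beside that of a second fit to the means of the 4 sets (n = 2 per genotype). "Rose" and "fell" are used only where both fits passed an adjusted p of 0.05. The estimated depth was 14.8 to 21.7 M reads per library. Over the 12 libraries 65.9% of all genes tested were called in 1 direction or the other, and over the set means 4.09%.

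Kallikreins are made as inactive precursors and cut their substrates after activation. Klk1, true tissue kallikrein, releases kinins from kininogens. The Klk1b genes arose by duplication in rodents and are best known from the submandibular gland of male mice, where androgens raise their expression and where some of their products bind and process epidermal growth factor. Klk4 to Klk15 have counterparts in humans and act among other places in skin and tooth enamel. The human prostate is known for KLK3, or prostate-specific antigen, which cleaves the semenogelins of the seminal clot and has no direct mouse counterpart.

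The Klk1b genes are copies of each other, so it matters how far reads of 1 gene could be counted for another. Each gene's longest transcript in GENCODE was cut into all windows of 100 bases, the read length in the labels, and each window was searched for in the transcripts of every other Klk gene and pseudogene. Of 756 windows of Klk1b22, 0% were identical to another copy, 6.22% were within 2 mismatches of one, and 93.8% differed from all by more than 2. The corresponding share within 2 mismatches was 28.5% for Klk1b24 and 32.5% for Klk1, and 2.57% of Klk1b24 windows and 6.08% of Klk1 windows were identical to another copy. Both shares were 0% for Klk8 and for each of the other genes from Klk4 to Klk15. The windows below show why Klk1b22 can be told from its copies over most of its length. The first pair is a typical coding window, bases 651 to 750 of the Klk1b22 transcript, beside its closest match in Klk1b21, with the 8 differing bases in capitals.
Klk1b22: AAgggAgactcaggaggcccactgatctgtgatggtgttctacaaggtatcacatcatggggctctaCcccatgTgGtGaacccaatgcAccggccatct
Klk1b21: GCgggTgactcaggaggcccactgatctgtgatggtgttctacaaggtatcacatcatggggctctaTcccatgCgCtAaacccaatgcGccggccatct
The second pair is the least distinct coding window, bases 55 to 154, beside its match in Klk1b16, which differs at the 1 base in capitals.
Klk1b22: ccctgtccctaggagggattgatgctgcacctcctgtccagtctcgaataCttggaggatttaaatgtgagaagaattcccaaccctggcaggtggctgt
Klk1b16: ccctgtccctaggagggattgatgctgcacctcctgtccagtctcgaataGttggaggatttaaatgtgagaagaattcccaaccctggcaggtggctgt
The sources used here do not give how the authors assigned reads that map to several places, or whether strand was used.

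**Figure D1:**
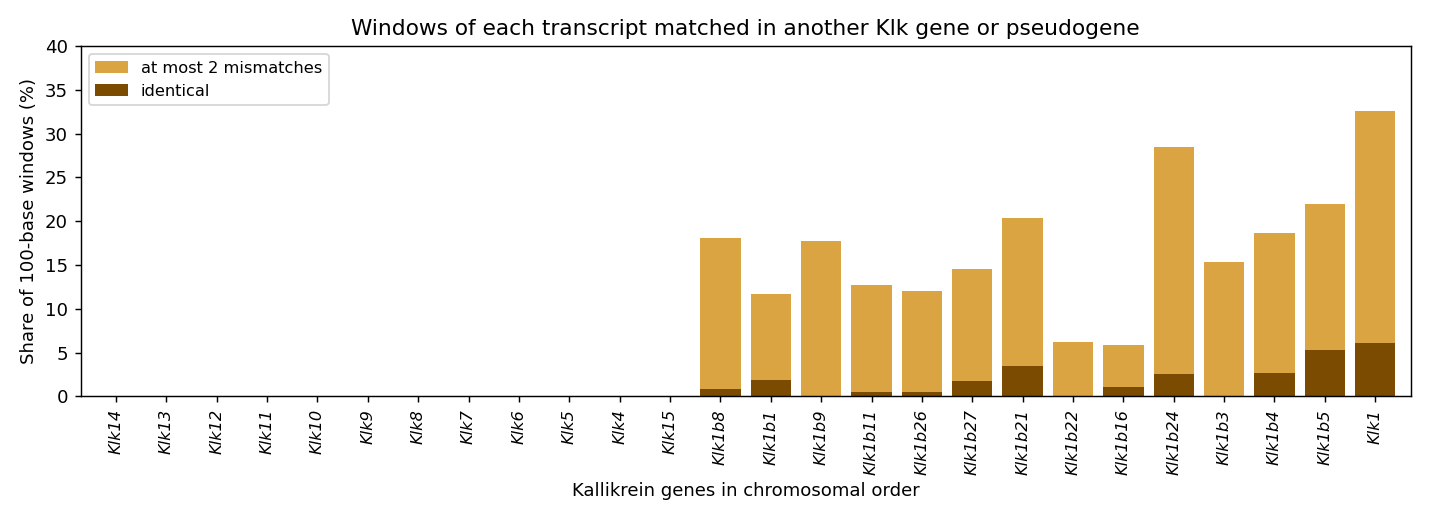
Share of 100-base windows of each kallikrein transcript, in %, that is identical to (dark) or within 2 mismatches of (light) a transcript of another Klk gene or pseudogene, with genes in chromosomal order. Klk1 and the Klk1b genes share windows, Klk4 to Klk15 share 0%, and Klk1b22 has 6.22% within 2 mismatches and 0% identical.

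Klk1b22 was the 1 kallikrein that rose in null prostates. It lies at chr7:44112673-44116922 on the plus strand of GRCm38 (ENSMUSG00000060177) and encodes a protein known as epidermal growth factor-binding protein type A. Its log2 values were 7.66, 7.59, 7.55, 9.05, 9.03 and 8.89 in the null libraries, against 2.92, 2.84, 2.71, 2.23, 2.04 and 2.17 in the wild-type libraries. Every null library was thus far above every wild-type library, and the wild-type values were low. The difference was 5.81 with an SE of 0.32 over 12 libraries (adjusted p = 1.09e-08 by limma, n = 6 per genotype) and an SE of 0.54 over the set means (adjusted p = 0.00785). It was the 17th largest positive difference among the 16197 genes tested. Genes that did not pass the filter are not ranked. Crisp1, high in null libraries 1 to 3 only, is 1 of these, with means of 8.92 in null mice and 2.09 in wild-type mice.

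Per length, Klk1b22 stood at 24.9 ± 12.8 CPM per kb of transcript in null libraries, with a range of 12.9 to 38.0, and at 0.328 ± 0.0963 CPM per kb in wild-type libraries (SD, n = 6 each). CPM here are shares of the library total after the log2 scale was undone. Where a gene is hardly expressed in this tissue can be judged from the 1037 olfactory receptor genes, a yardstick chosen after the values were seen. Their single log2 values had a median of 1.95 and a 95th percentile of 2.86, and the 95th percentile of their means was 2.33 in each genotype. In wild-type prostates Klk1b22 averaged 2.48 ± 0.38 (SD, n = 6), close to that level, so the difference of 5.81 cannot be read as a fold change. Fewer cells that express a gene and less RNA per cell cannot be told apart in whole tissue.

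The library sets of null mice differed in Klk1b22. Null libraries 1 to 3 averaged 7.60 ± 0.06 and null libraries 4 to 6 averaged 8.99 ± 0.09. Wild-type libraries 1 to 3 averaged 2.82 ± 0.11 and wild-type libraries 4 to 6 averaged 2.15 ± 0.09 (SD, n = 3 each). The wild-type values lie largely within the range of the olfactory receptor genes, so no order of the wild-type sets is read from them.

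Klk1b24 (ENSMUSG00000063713, chr7:44188236-44192455), a glandular kallikrein gene, was low in both genotypes. It had values of 4.28, 4.04, 4.04, 4.44, 4.36 and 4.60 in null libraries, against 3.97, 2.69, 3.49, 3.098, 3.99 and 3.27 in wild-type libraries. The genotypes did not overlap, as the filter fixed for a gene that reached 4 in null libraries alone. The highest wild-type library lay just under the lowest null library. The difference of 0.88 passed over 12 libraries (SE 0.23, limma, n = 6 per genotype, adjusted p = 0.00451) and did not pass over the set means (SE 0.34, adjusted p = 0.146). Of the Klk1b genes, Klk1b24 has the largest share of windows within 2 mismatches of another copy, so it is uncertain which copy its level counts.

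Klk8 (ENSMUSG00000064023, chr7:43797577-43803826), also called neuropsin and studied mainly in brain and skin, was the 1 kallikrein that passed the filter through both genotypes. It had values of 4.51, 3.90, 4.58, 4.75, 4.56 and 4.79 in null libraries, against 4.19, 3.71, 4.64, 4.46, 5.10 and 5.22 in wild-type libraries. The genotypes overlapped over most of their range. The difference was -0.04 with an SE of 0.26 (limma over 12 libraries, n = 6 per genotype, adjusted p = 0.902, and adjusted p = 0.954 over the set means), and it was 0.28 with equal library totals and 0.11 with equal totals without the 50 most abundant genes. Per length, Klk8 stood at 1.06 ± 0.226 CPM per kb in null libraries and 0.906 ± 0.324 CPM per kb in wild-type libraries (SD, n = 6 each).

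Among the genes that passed the filter, Klk1b22 and Klk1b24 were called higher over 12 libraries, where 34.1% of all genes tested were called higher, and 0 were called lower, where 31.8% were. Over both fits 1 kallikrein was called higher and 0 lower, against 2.15% and 1.93% of all genes. Klk1b22 and Klk1b24 passed the filter only through their null libraries, so genes of this kind had to differ in that direction and their count says nothing of the family. For the same reason the 2 genes could not overlap between genotypes, so this says nothing more of them. Of all genes, 21.5% had no overlap in that direction.

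**Figure D2:**
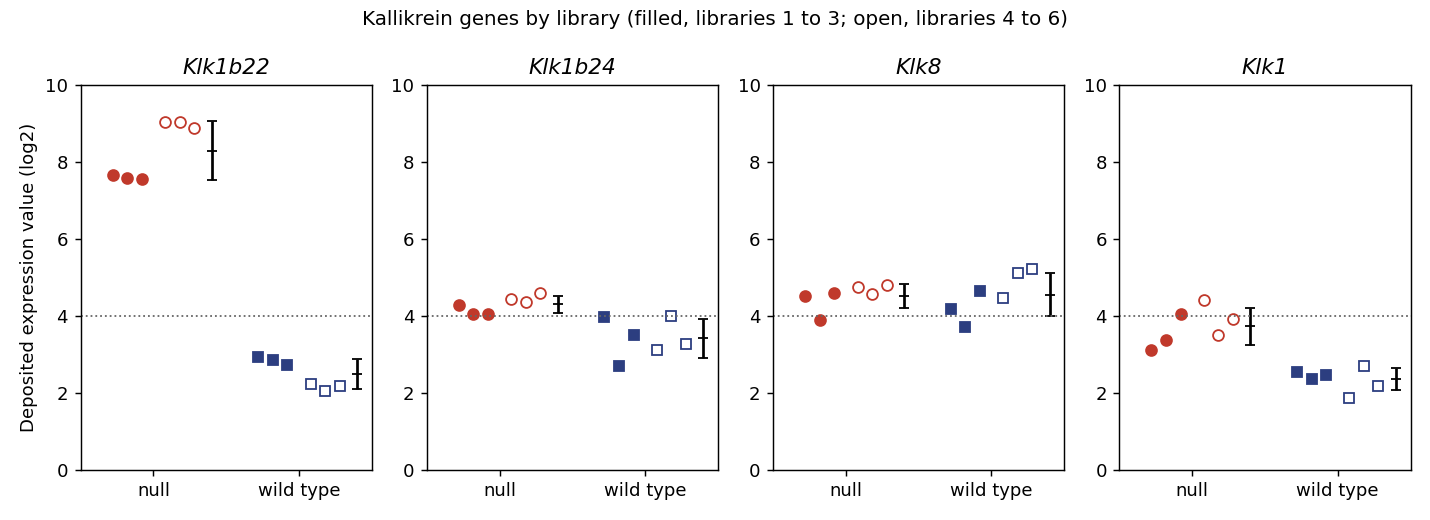
Deposited log2 values of Klk1b22, Klk1b24, Klk8 and Klk1 in each null (red) and wild-type (blue) library, filled for libraries 1 to 3 and open for libraries 4 to 6, with the mean and SD of 6 libraries as bars and the filter value of 4 as a dotted line. Klk1b22 is at 7.55 to 9.05 in null libraries and 2.04 to 2.92 in wild-type libraries, while Klk8 overlaps.

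Klk1 (ENSMUSG00000063903, chr7:44225360-44229618), the kinin-releasing kallikrein, is the gene just outside the filter, with 2 libraries at 4 or more, and is described because of its values. It had 3.101, 3.36, 4.04, 4.41, 3.50 and 3.92 in null libraries, against 2.55, 2.36, 2.46, 1.86, 2.69 and 2.19 in wild-type libraries. The genotypes did not overlap, with a difference of 1.37 between means. Of all genes that passed the filter, 21.5% had no overlap in that direction. Fitted without a filter, over all 39179 genes, the adjusted p of Klk1 was 0.000792 over 12 libraries by limma with n = 6 per genotype, and 0.127 over the set means. Without a filter, 15.1% of the 39179 genes were called higher over 12 libraries. Of the windows of Klk1, 26.5% were within 2 mismatches of Klk1b5 alone.

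The other kallikreins were low in both genotypes. The 23 genes that did not pass the filter, Klk1 included, had means of 1.59 to 3.72 in null mice and 1.53 to 2.87 in wild-type mice, and single values of 0.51 to 4.41. Their differences ran from -0.75 for Klk1b11 to 1.37 for Klk1 with a median of 0.09, and the null mean was higher for 15 and lower for 8. Apart from Klk1, 22 of the 23 had 0 libraries at 4 or more. For 10 of the 26 kallikreins both means were at or under the level of 2.33 given above. Of the 23, 8 had a null mean over the 99th percentile of the olfactory receptor means, 2.66 in null mice, namely Klk1, Klk13, Klk14, Klk1b8, Klk1b5, Klk10, Klk9 and Klk1b27. In wild-type mice 5 were over that percentile, 2.54, namely Klk1b11, Klk10, Klk1b5, Klk14 and Klk13.

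The other genes whose products are named for epidermal growth factor were among these low genes. Klk1b26 and Klk1b9, which encode epidermal growth factor-binding proteins of types B and C, averaged 2.25 ± 0.43 and 1.84 ± 0.32 in null mice, against 1.99 ± 0.90 and 2.03 ± 0.56 in wild-type mice. Klk1b3 and Klk1b4, also of the Klk1b group, averaged 1.59 ± 0.67 and 1.77 ± 0.40 in null mice, against 1.53 ± 0.60 and 1.80 ± 0.58 in wild-type mice (SD, n = 6 each). None of these genes had a library at 4 or more.

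The genes on either side of Klk1b22 were low as well. Klk1b21 averaged 2.65 ± 0.51 in null mice and 2.28 ± 0.61 in wild-type mice, and Klk1b16, which encodes gamma-renin and holds the closest windows, averaged 2.40 ± 0.42 in null mice and 2.14 ± 0.47 in wild-type mice (SD, n = 6 each). Neither difference approached that of Klk1b22. Fitted without a filter, 5 of the 26 kallikreins were called higher over 12 libraries (limma), against 15.1% of 39179 genes, and 0 were called lower, against 12.7%. The called genes were Klk1b22, Klk1, Klk1b24, Klk1b8 and Klk1b27, and only Klk1b22 was also called over the set means.

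Of the genes from Klk4 to Klk15 that did not pass the filter, Klk13 and Klk14 had the highest means in null mice. Klk14 and Klk13 were at 3.25 ± 0.14 and 3.38 ± 0.30 in null mice, against 2.68 ± 0.86 and 2.57 ± 0.88 in wild-type mice. Klk7, which acts in the shedding of the outer skin, averaged 2.25 ± 0.64 in null mice and 2.35 ± 0.45 in wild-type mice. Klk5, which can activate Klk7, averaged 1.82 ± 0.27 in null mice and 2.18 ± 0.32 in wild-type mice. Klk4, needed for enamel, averaged 1.75 ± 0.47 in null mice and 2.12 ± 0.43 in wild-type mice (SD, n = 6 each). The libraries of the 2 genotypes overlapped for each of these genes.

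**Figure D3:**
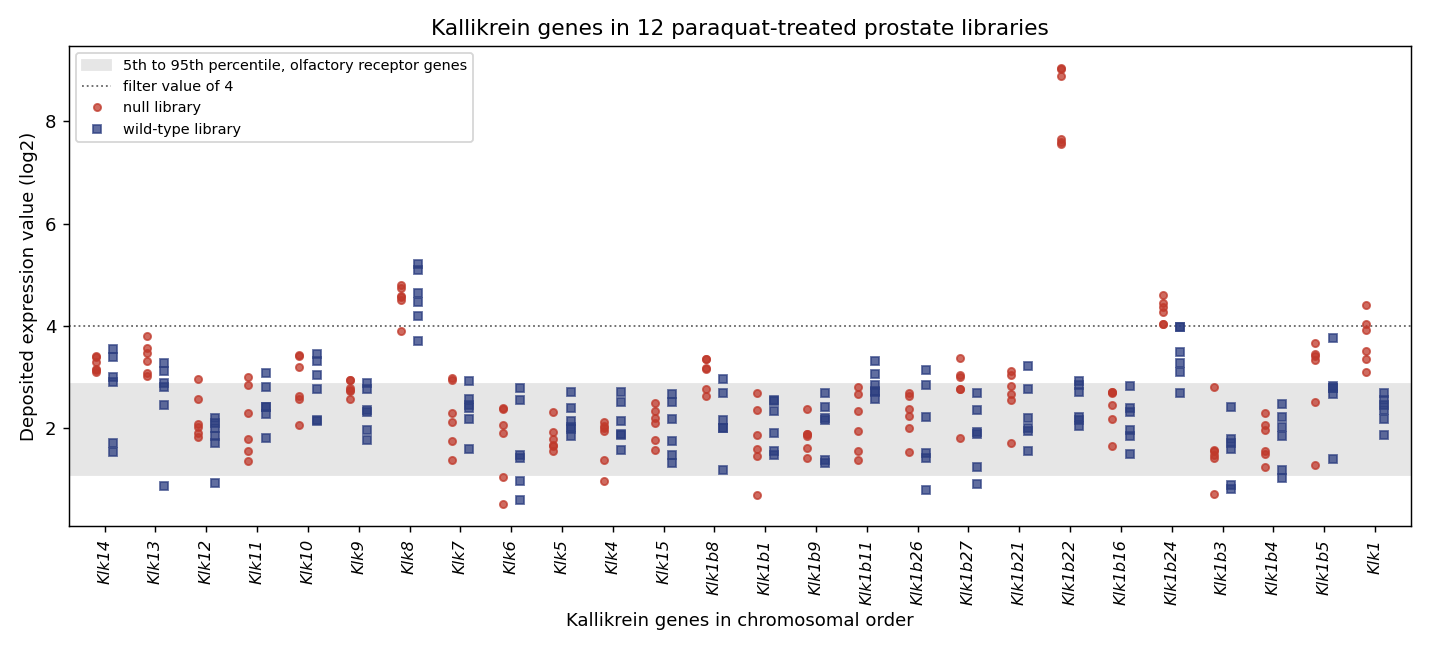
Deposited log2 value of each of the 26 kallikreins in 6 null (red) and 6 wild-type (blue) libraries, in chromosomal order, with the 5th to 95th percentile of the olfactory receptor values shaded and the filter value of 4 dotted. Klk1b22 stands at 7.55 to 9.05 in null libraries, and no other kallikrein exceeds 5.22 in any library.

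No protein-coding gene other than a kallikrein lies inside the cluster in this table. Of the 10 nearest tested protein-coding genes, 5 on each side, differences ran from -0.24 to 1.11, with 3 called higher over 12 libraries, a share near the 34.1% of all genes tested, and 0 called lower, beside 31.8%. The 3 were Cd33 (0.88), a surface receptor of myeloid cells, 2410002F23Rik (0.40) and Shank1 (1.11), a scaffold protein of synapses. None passed over the set means, with adjusted p of 0.189, 0.180 and 0.155 (limma).

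Promoter sequence, from 250 bases before to 50 after the start site, was available for all 26 genes as 28 promoters from RefSeq (GRCm38.p6). The promoter of Klk1b22 is shown beside its closest relative, that of Klk1b9, because the 2 genes differ so much in level. They are 84.7% identical with 46 edits, and capitals mark bases that differ or have no partner in the alignment. The first lies at chr7:44112423-44112722 and the second at chr7:43975811-43976110, both on the plus strand.
Klk1b22: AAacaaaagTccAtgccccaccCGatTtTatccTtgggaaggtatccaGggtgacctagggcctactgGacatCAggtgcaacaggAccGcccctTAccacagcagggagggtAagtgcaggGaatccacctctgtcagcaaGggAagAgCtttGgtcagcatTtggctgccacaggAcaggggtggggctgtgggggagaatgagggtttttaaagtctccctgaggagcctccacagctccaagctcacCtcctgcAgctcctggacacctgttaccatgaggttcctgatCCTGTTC
Klk1b9: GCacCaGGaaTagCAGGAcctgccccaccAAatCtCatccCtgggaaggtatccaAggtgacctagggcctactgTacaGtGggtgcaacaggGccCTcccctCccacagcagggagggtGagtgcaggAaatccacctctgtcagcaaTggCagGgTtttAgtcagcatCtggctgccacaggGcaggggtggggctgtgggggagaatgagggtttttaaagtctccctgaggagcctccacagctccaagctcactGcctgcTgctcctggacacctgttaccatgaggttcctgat
One exact form of the androgen response element, AGAACA and TGTTCT with any 3 bases between them, was searched on both strands. It was in 0 of the 28 promoters and in 3 of 32851 promoters of all genes. A sequence this rare was unlikely in 28 promoters, and less exact forms of the whole element were not searched for. The count of 0 thus does not show that these promoters lack the element. AGAACA or TGTTCT alone was in 7 of 28, against 19.0% of all promoters. This was so for 2 of 14 promoters of Klk1 and Klk1b genes, those of Klk1b24 and Klk1b3, for 5 of the 14 others, and not for Klk1b22 or Klk1b9. These windows hold no more distant sequence.

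Genes that act with the kallikreins were described by role. Of 59 listed symbols, 58 were matched in the table and 42 passed the filter. A symbol without a match, here and in the marker lists, does not show that the gene is absent. Over 12 libraries 29 of the 42 were called higher and 4 lower, beside 34.1% and 31.8% of all genes tested, with a median difference of 0.84, beside 0.05 for all genes tested. Over both fits 7 were called higher and 1 lower, beside 2.15% and 1.93% over the set means. Of the 42, 5 passed the filter only through null libraries and 0 only through wild-type libraries.

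Among serine proteases that can activate kallikreins or act beside them, 4 of 9 were called higher and 2 lower over 12 libraries. Of all genes tested 34.1% and 31.8% were, so these counts are near the shares of all genes. Over both fits 1, Tmprss2, fell, beside 1.93% of all genes called lower over the set means. Tmprss2, an androgen-regulated membrane protease, averaged 11.52 ± 0.03 in null mice and 13.31 ± 0.11 in wild-type mice (SD, n = 6 each), a difference of -1.79 (limma over set means, adjusted p = 0.0147). Prss8, prostasin, averaged 10.55 in null mice and 11.24 in wild-type mice (-0.70, adjusted p = 0.0917 over the set means). Prss22 averaged 5.40 in null mice and 4.06 in wild-type mice (1.33, adjusted p = 0.0782 over the set means).

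Of 13 tested protease inhibitors 10 were called higher and 1 lower over 12 libraries, beside 34.1% and 31.8% of all genes tested. Over both fits 1, Spink11, rose, beside 2.15% of all genes. Spink11, of the Kazal inhibitor family, averaged 8.94 ± 0.78 in null mice and 4.94 ± 0.41 in wild-type mice (SD, n = 6 each), a difference of 4.00 (limma over set means, adjusted p = 0.0150). Spink5, the inhibitor of skin kallikreins, averaged 14.05 in null mice and 13.02 in wild-type mice (1.04, adjusted p = 0.0968 over the set means). Spink1, a secreted trypsin inhibitor abundant in prostate fluid, averaged 14.55 in null mice and 18.27 in wild-type mice (-3.72, adjusted p = 0.0735 over the set means).

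Of 13 tested substrates or presumed substrates, 10 were called higher and 1 lower over 12 libraries, beside 34.1% and 31.8% of all genes tested. Over both fits 6 rose, beside 2.15% of all genes. Of the 13, 5 (Cdsn, Sva, Svs3a, Svs3b and Svs6) had no wild-type library at 4 and passed the filter only through null libraries, so they could only be higher and the count is no measure of substrates as a group. All 6 that rose, Sva, Svs3a, Svs3b, Svs4, Svs5 and Svs6, encode seminal vesicle or seminal fluid proteins, and Svs3a, Svs4, Svs5 and Svs6 are also among the seminal vesicle markers below. Svs3b averaged 11.51 ± 0.14 in null mice and 2.78 ± 0.72 in wild-type mice, a difference of 8.74. Svs3a averaged 12.71 ± 1.02 in null mice and 3.09 ± 0.71 in wild-type mice, a difference of 9.63. Sva averaged 8.74 ± 0.73 in null mice and 2.36 ± 0.47 in wild-type mice, a difference of 6.39 (SD, n = 6 each). Egf, the epidermal growth factor gene, averaged 13.42 in null mice and 14.04 in wild-type mice, with an adjusted p of 0.248 over the set means (limma). The kininogen genes Kng1 and Kng2 did not pass the filter.

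Of 6 tested genes for kinin breakdown or for receptors, 4 were called higher over 12 libraries and 0 lower. Of all genes tested 34.1% and 31.8% were. Over the set means 0 of the 6 passed, beside 4.09% of all genes. F2rl1, the receptor that serine proteases activate by cutting it, averaged 9.15 in null mice and 8.69 in wild-type mice. Cpn1, the catalytic subunit of the plasma carboxypeptidase that trims kinins, averaged 4.63 in null mice and 3.45 in wild-type mice. Mme, neprilysin, averaged 12.93 in null mice and 12.05 in wild-type mice. The kinin receptor genes Bdkrb1 and Bdkrb2 did not pass the filter.

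Markers of other tissues also differed between the genotypes. All 6 seminal vesicle markers were in the table, and their summed level was 161735 to 163627 CPM in null libraries 1 to 3 and 6968 to 7086 CPM in null libraries 4 to 6, against 2.03 to 10.8 CPM in wild-type libraries. The 5 prostate secretory markers matched by symbol were present in all libraries, at 10858 to 11691 CPM in null mice and 76998 to 100784 CPM in wild-type mice. The 6 markers of vas deferens and epididymis summed to 3270 to 3491 CPM in null libraries 1 to 3 and 3.06 to 4.21 CPM in null libraries 4 to 6, against 1.16 to 1.60 CPM in wild-type libraries, and were carried by Crisp1 and Akr1b7, with Lcn5, Lcn8 and Rnase10 near the floor. The part of these tissues in the result for Klk1b22 was not tested.

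The null library sets also differed in these markers, and not all in the same direction. Set against null libraries 1 to 3, null libraries 4 to 6 were higher by 1.39 for Klk1b22, by 1.32 for Sva, by 1.87 for Svs3a, by 1.85 for Svs4 and by 0.26 for Svs3b. The same libraries differed by -9.66 for Svs2, by -5.67 for Svs5, by -1.06 for Svs6, by -8.87 for Pate4 and by -10.61 for Crisp1. Between the null sets Klk1b22 moved in the same direction as Sva, Svs3a, Svs3b and Svs4 and in the opposite direction to Svs2, Svs5, Svs6, Pate4 and Crisp1. The summed seminal vesicle level follows the abundant Svs2 and Svs5 and does not follow every gene of the list.

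The submandibular gland is where Klk1b genes are best known, so its markers were read as well. Of 7 listed salivary gland symbols 6 were matched in the table, and they summed to 9.32 to 15.3 CPM in null libraries and 11.9 to 20.5 CPM in wild-type libraries. The sums came mostly from Amy1 in null libraries and from Amy1 and Smgc in wild-type libraries. Amy1 averaged 7.27 ± 0.15 in null mice and 7.57 ± 0.57 in wild-type mice (SD, n = 6 each). Smgc, a submandibular gland secretory protein, averaged 2.21 and 2.80 in the null sets, against 7.01 and 7.17 in the wild-type sets. Dcpp1, Dcpp2 and Bpifa2 were near the floor in both genotypes. Prol1 averaged 2.24 in null libraries 1 to 3 and 5.49 in null libraries 4 to 6, against 1.76 and 2.11 in the wild-type sets.

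The other marker lists differed less between genotypes than the seminal vesicle list. Luminal epithelium (4 genes) summed to 2197 to 2770 CPM in null and 2655 to 3249 CPM in wild-type libraries, and basal epithelium (4 genes) to 247 to 377 CPM in null and 139 to 181 CPM in wild-type libraries. Of the basal genes, Krt14 had a lower mean log2 value in null mice (7.29 against 7.88), whereas Krt5, Krt15 and Trp63 had higher ones. Urothelium (4 genes) summed to 531 to 1246 CPM in null and 388 to 415 CPM in wild-type libraries. Stratified squamous epithelium, in which Klk5, Klk7 and Klk14 act, summed over 5 of 6 genes to 9.65 to 14.1 CPM in null and 7.39 to 9.66 CPM in wild-type libraries. Smooth muscle (4 genes) summed to 3124 to 4840 CPM in null and 3152 to 3867 CPM in wild-type libraries, and leukocytes (4 genes) to 42.8 to 66.7 CPM in null and 21.3 to 32.5 CPM in wild-type libraries. Liver (3 genes) summed to 3.15 to 6.04 CPM in null and 1.69 to 3.48 CPM in wild-type libraries. In CPM, urothelial, basal and leukocyte sums were thus higher in every null library, as Klk1b22 was. They were also higher in null libraries 4 to 6 than in null libraries 1 to 3. The luminal, squamous, salivary and liver sums were too, whereas the smooth muscle sum was lower. Basal and leukocyte sums differed in the same direction between the wild-type sets. They were 175 to 181 and 31.0 to 32.5 CPM in wild-type libraries 4 to 6, against 139 to 143 and 21.3 to 22.3 CPM in 1 to 3. Urothelial sums overlapped between the wild-type sets. CPM make library totals equal, and equal totals moved the median difference of all genes to 0.37, beside 0.05 on the deposited scale. On the deposited scale Upk1a averaged 11.84 in null libraries 1 to 3, against 12.10 in wild-type libraries 4 to 6. Krt5 overlapped between genotypes there and Trp63 did not. The part of these cell types in the Klk1b22 difference was not tested.

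**Figure D4:**
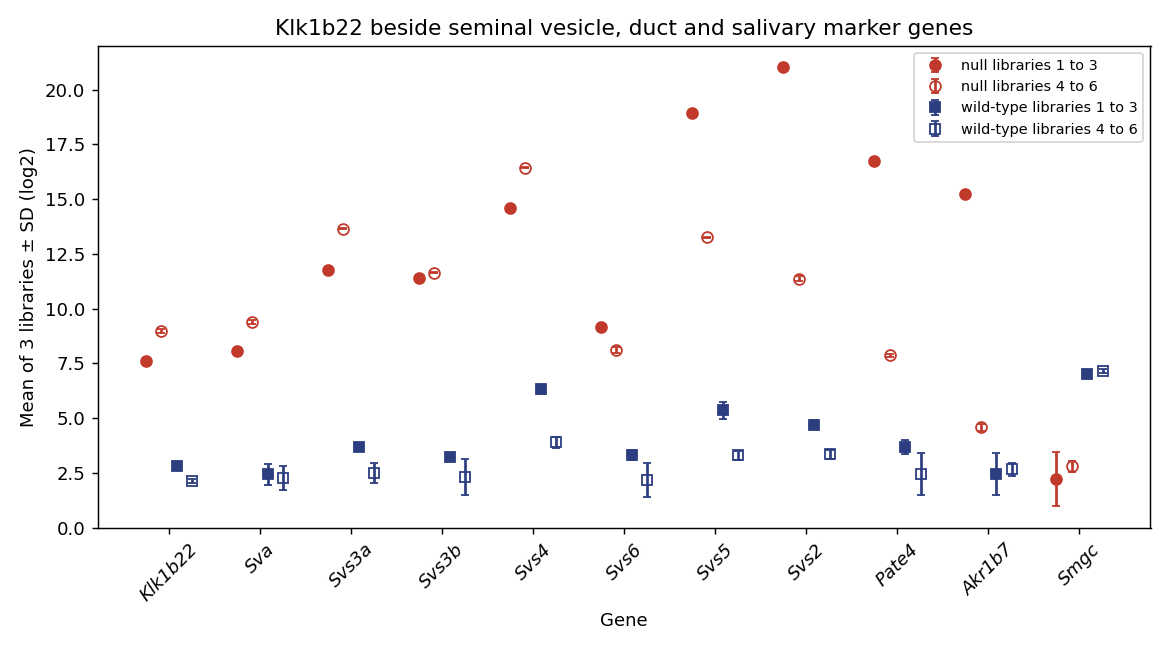
Mean and SD of 3 libraries (deposited log2 values) for Klk1b22 and markers of seminal vesicle, duct and salivary gland, in null (red) and wild-type (blue) library sets, filled for libraries 1 to 3 and open for 4 to 6. Klk1b22, Sva, Svs3a and Svs4 are higher in null libraries 4 to 6 than in 1 to 3, whereas Svs2, Svs5, Pate4 and Akr1b7 are lower there.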

How the data were processed

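Poly-A RNA was sequenced on a HiSeq2000 with TruSeq libraries, per the labels' protocols. Per the submitters' processing notes, the tools were DESeq, Cufflinks, TopHat and CASAVA 1.8.2 and the builds GRCm38.p2 and mm9, without roles. The deposited table holds log2 values that the authors had normalized between libraries, and the sources used here do not give the transformation. Its low end is a floor of unequal values, so differences of low genes are uncertain in size and may be understated. For the olfactory receptor genes the 5th and 95th percentiles of the difference were -0.50 and 0.51. Whole reads could be recovered only for high values, so depth is an estimate and no count-based test was run.

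Symbols and positions came from GENCODE for GRCm38, in which 37607 of 39179 IDs (96.0%) matched. Differences were tested two-sided with limma's trend method (version 3.58.1, R 4.3.3) on genes that reached 4 in at least 6 of 12 libraries, with Benjamini-Hochberg adjustment over all 16197 genes and a threshold of 0.05. It was fitted over 12 libraries and over the means of the 4 library sets, which were found by clustering, not from the labels. The fit over 12 libraries was tested on simulated data in which all libraries were independent. That simulation held no library sets, so it does not check the p-values where libraries are related. Where separate animals are not given, p-values measure the spread between libraries, which may be technical. Figures and sequence searches used Python 3.11.15. Kallikreins, role lists, marker lists and alternatives were chosen with earlier results of these data known. Values in every library are given for kallikreins that passed the filter or had a mean of at least 4 in either genotype or set, and up to 3 genes per role, by lowest limma p, are named, with Egf and Klk1 added after their values were seen, as were the other kallikreins given as means. The alternatives were other scalings, filters, limma settings and leaving out libraries or sets; the fit over set means without a filter was added after seeing the data. The gene under study and a few listed genes are not reported here.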

Additional observations from a re-analysis of the deposited data

Results flagged for a closer look

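Klk8 in null mice had 1 library apart from the others. Its lowest null library, replicate 2, was at 3.90, against 4.51 to 4.79 in the other null libraries and 3.71 to 5.22 in wild-type libraries, and the gap to its neighbour was large for a group of 6. In all, 17 genes were examined in 34 groups and 1 value stood out, where chance gives about 1 in 20 groups if libraries are independent. The library sets make them related, so that rate may not apply here. Without that library the Klk8 difference was 0.086 in place of -0.04.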

How the results depend on the processing

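Klk1b22 kept its direction and passed under all 26 alternatives, with differences of 5.12 to 6.50 and adjusted p of at most 0.00785 (limma), and 5.66 to 5.96 without single libraries. The count of kallikreins called higher was 2; it was 1 over set means, 1 with the set as a random block, 1 with quantile normalization, 1 with a filter at 6, 1 without null libraries 4 to 6, 1 over set means with no filter, 5 with no filter, and 2 to 2 without single libraries. The count called lower was 0 throughout. Klk1b24 no longer passed over set means (0.88, adjusted p = 0.146), with the random block (0.88, adjusted p = 0.431), with quantile normalization (0.57, adjusted p = 0.0597), without null libraries 4 to 6 (0.70, adjusted p = 0.0576) and over set means with no filter (0.88, adjusted p = 0.307), and was 0.73 to 0.99 without single libraries. Klk8 changed sign with equal library totals (0.28), without the 50 most abundant genes (0.11), without null libraries 1 to 3 (0.15) and without wild-type libraries 4 to 6 (0.34), and was -0.21 to 0.095 without single libraries (0.086 without null library 2, 0.073 without wild-type library 5, 0.095 without wild-type library 6), never passing. Genes of the role lists called higher numbered 29, and 7 over set means, 19 with the random block, 8 over set means with no filter and 27 to 29 without single libraries; those called lower numbered 4, and 1 over set means, 2 over set means with no filter and 4 to 4 without single libraries. Equal totals moved the median difference of all genes to 0.37, totals without the 50 most abundant genes to 0.20 and quantile normalization to -0.03, beside 0.05. The cause of these changes was not tested. No paired analysis was possible because the labels number no replicates. Values near the floor limit what can be said of the low kallikreins.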
